A study of Mus musculus with 10 samples.

Results

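The genes described here encode the proteins of the cytosolic ribosome. They were chosen by symbol alone, as Rpl or Rps followed by a number (with an optional a, x, y, l or further digit) or Rplp0, Rplp1 and Rplp2, and 84 of the 24454 genes in the deposited count table met the rule. Of these, 31 had small subunit symbols (Rps) and 53 large subunit symbols (Rpl and Rplp). A further symbol that fitted, Rps4l, is a transcribed pseudogene in RefSeq and was left out. Low counts kept Rpl10l, Rpl3l and Rpl39l out of the tests, so that 81 of the 84 were tested among 13135 genes.

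RNA was sequenced from the E9 subclone of NMuMG, an epithelial line from normal mouse mammary gland that undergoes epithelial-mesenchymal transition with the cytokine TGFbeta. Since all libraries came from 1 subclone, they sample 1 genetic background. The siIrf1 TGFbeta group (3 libraries) received an siRNA against Irf1, which encodes interferon regulatory factor 1, and was then kept for 2 d in TGFbeta at a concentration of 2 ng/ml. The siCtr TGFbeta group (2 libraries, replicates 2 and 3) received a control siRNA and the same TGFbeta. The siIrf1 0 d group (3 libraries) and the siCtr 0 d group (2 libraries, replicates 1 and 3) received the Irf1 siRNA and the control siRNA, each with no TGFbeta. Every group was transfected with siRNA at 20 nM and collected on day 3, so no group was free of transfection. The labels do not say that replicates were separate cultures, so p-values measure the spread between these libraries, which may be technical.

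A ribosome is built from a small subunit, which reads the mRNA, and a large subunit, which joins amino acids. Each subunit is a scaffold of ribosomal RNA carrying proteins that are needed in nearly equal numbers, and the genes of those proteins are among the most strongly expressed in dividing cells. Many of their mRNAs are TOP mRNAs (terminal oligopyrimidine): they begin with a C followed by an unbroken run of pyrimidines, and mTORC1, the growth-control kinase complex, governs how well they are translated through the binding protein Larp1. A few of the proteins have a second role, such as Rpl5, Rpl11 and Rpl23, which bind the p53 ubiquitin ligase Mdm2.

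The start of several of these genes carries the pyrimidine run that defines TOP mRNAs. The sequences below, from the RefSeq promoter table of GRCm38.p6, each cover 30 bases from 10 bases before to 20 bases from the annotated start, read along the gene's own strand. Capitals mark the longest run of pyrimidines that begins with a C. The first 4 genes have long runs. The other 4 are Rps27, the standard partner of the paralog Rps27l, then Rpl22l1, and then Rps24 and Rps15a. Of the 14 genes described below that rose with the Irf1 siRNA without TGFbeta, 10 were in the promoter table. Among those 10, only Rps24 and Rps15a had runs of at least 8 bases there. Rps27l, which fell with TGFbeta in siIrf1 cells, had runs of 7 and 4 bases at its annotated starts and is not shown.
Rpl27a: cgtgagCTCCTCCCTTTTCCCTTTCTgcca
Rpl35: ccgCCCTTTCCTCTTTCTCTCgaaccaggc
Rpl7a: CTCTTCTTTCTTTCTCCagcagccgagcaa
Rps6: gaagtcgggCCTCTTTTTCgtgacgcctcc
Rps27: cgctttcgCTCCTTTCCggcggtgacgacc
Rpl22l1: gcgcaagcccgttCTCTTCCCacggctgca
Rps24: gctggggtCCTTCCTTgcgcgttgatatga
Rps15a: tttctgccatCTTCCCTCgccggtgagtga
The run was 20 bases in Rpl27a (chr7:109519185-109519214, plus strand), 18 in Rpl35 (chr2:39005112-39005141, minus strand) and 17 in Rpl7a (chr2:26910797-26910826, plus strand). It was 10 bases in Rps6 (chr4:86857348-86857377, minus strand), whose protein is the best known substrate of the S6 kinases. It was 9 bases in Rps27 (chr3:90213629-90213658, minus strand), and 8 bases in Rpl22l1 (chr3:28805498-28805527, plus strand), Rps24 (chr14:24490668-24490697, plus strand) and Rps15a (chr7:118116128-118116157, minus strand). The table held 64 of the 84 genes, and 25 of the 64 (39.1%) had a C followed by at least 7 more pyrimidines in this window, against 10.1% of the 27025 genes in the table. Short pyrimidine words were searched in the same window on both strands, and could overlap each other. CTCTTT was in 8 of the 64 (12.5%, against 2.35% of all genes in the table). The word CTTTCC was in 10 (15.6%, against 3.03%). The word CTTTTC was in 5 (7.81%, against 2.23%). On the gene's own strand 17 of the 64 held at least 1 of these words (26.6%, against 3.6%). These are matches at annotated starts, and the starts used in these cells were not measured.

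Libraries held 27547649 to 67301646 counts. Irf1 was at 36.5, 46.2 and 41.0 CPM (counts adjusted for depth with the TMM factor of each library) in siIrf1 TGFbeta cells, against 106.5 and 111.5 CPM in siCtr TGFbeta cells. It was at 56.4, 64.1 and 57.7 CPM in siIrf1 0 d cells, against 147.6 and 128.7 CPM in siCtr 0 d cells, so the siRNA groups did not overlap. Of 8 epithelial markers, 5 were among the genes tested. They summed to 6638 to 11541 CPM in siIrf1 TGFbeta, 12758 to 13640 in siCtr TGFbeta, 8051 to 9184 in siIrf1 0 d and 9217 to 10605 CPM in siCtr 0 d libraries, while Epcam, Cldn3 and Cldn7 were at or near 0 in every group. Krt8 and Krt18 carried most of the sum. The junction gene Cdh1 averaged 667.0 CPM in siIrf1 TGFbeta, 350.9 in siCtr TGFbeta, 603.1 in siIrf1 0 d and 640.0 CPM in siCtr 0 d cells, and Krt19 averaged 949.9, 306.9, 2132 and 2438 CPM in the same order. Fibroblast and pericyte markers, 5 of 8 tested and with Col1a2 and Lum at 0, summed to 41.0 to 45.7 CPM in siIrf1 TGFbeta, 46.2 to 47.4 in siCtr TGFbeta, 1.27 to 1.41 in siIrf1 0 d and 0.825 to 0.909 in siCtr 0 d cells. Endothelial, immune and adipocyte marker sums stayed at or under 5.92, 6.87 and 0.167 CPM. The part of these markers in the results below was not tested, and in bulk RNA fewer cells of a type and less RNA per cell cannot be told apart.

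Most of the ribosomal protein genes were strongly expressed. Scaled by the length given in the table (TPM), their median level over the 10 libraries was 649.2 TPM, against 21.6 TPM for all genes tested. The highest mean was that of Rpl8, a large subunit protein near the catalytic centre, at 4001 TPM (range 2605 to 4765 over the 10 libraries), followed by Rpl32 at 3155 TPM (2299 to 4208) and Rpl4 at 2809 TPM (2068 to 3914). The ranges of these 3 overlap. In all, 21 genes had a mean over 1000 TPM, 54 lay between 100 and 1000 TPM, 2 (Rpl36al and Rps2) between 10 and 100 TPM, and 7 were under 10 TPM.

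**Figure D1:**
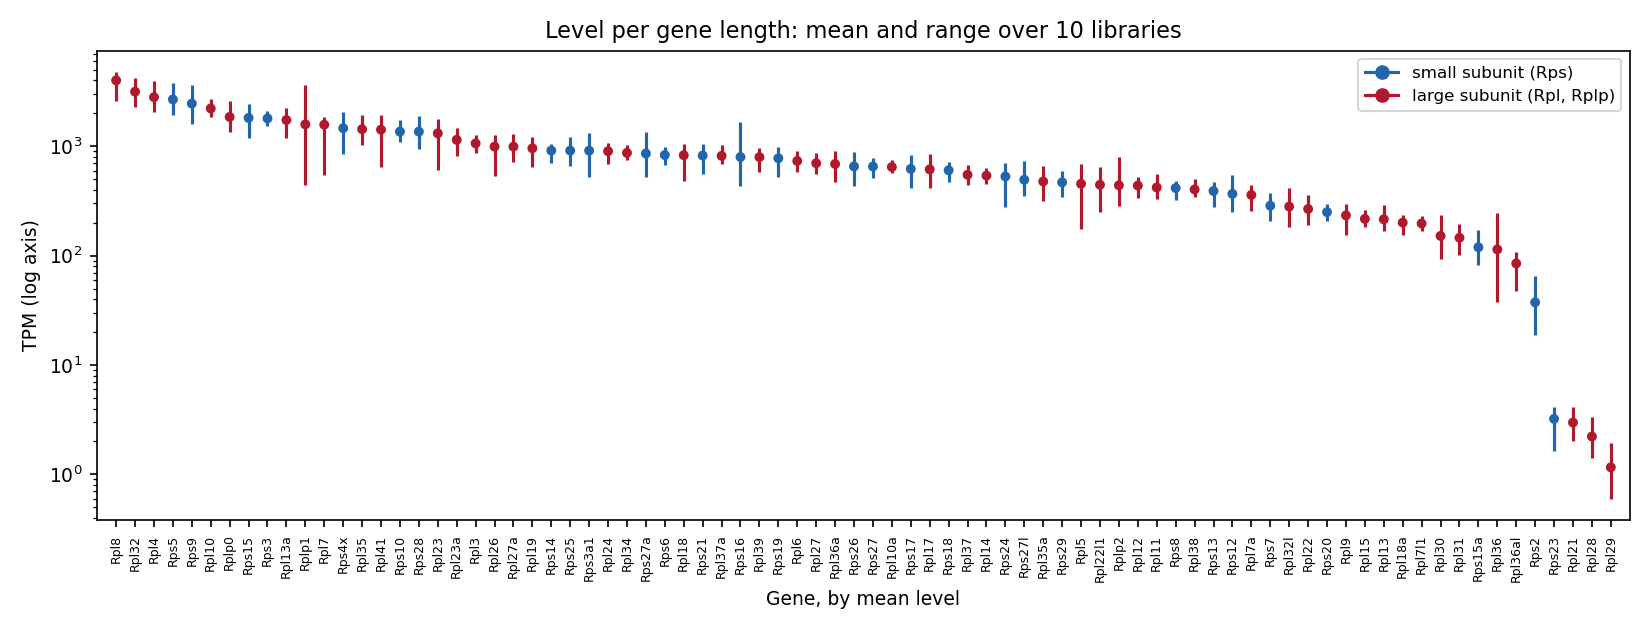
Level of each ribosomal protein gene per gene length, in TPM on a log axis, ordered by mean; points are means and lines the range over 10 libraries, blue for the small and red for the large subunit. Genes at 0 in any library, and 1 gene not reported here, are not drawn. Rpl8 led at 4001 TPM, and Rps2, Rps23, Rpl21, Rpl28 and Rpl29 lay far under the median of 649.2 TPM.

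The 7 lowest were of different kinds. Rpl10l, Rpl3l and Rpl39l, paralogs known for restricted expression in testis or muscle, had 19, 17 and 3 counts in total over the 10 libraries. Rps23, Rpl21, Rpl28 and Rpl29 encode standard subunit proteins, yet had only 310, 939, 199 and 142 counts in total. Rps2, a standard small subunit protein, had 6836 counts and 37.4 TPM. Ribosomal protein genes have many processed copies in the mouse genome, and the treatment of reads that match several places is not given in the sources used here, so these low levels are those of the counting and not necessarily of the mRNA.

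Near-identical copies in the table bear on the values of several standard genes. Rps27rt carried 0.9798 to 0.9944 times the counts of Rps27 in every library, and Rpl34-ps1 carried 0.9887 to 0.9989 times those of Rpl34. Rpl37rt (1.5071 to 2.434 times Rpl37), Rpl14-ps1 (2.2604 to 2.6601 times Rpl14) and Rplp2-ps1 (2.1318 to 3.2339 times Rplp2) had more counts than the gene they resemble. Values of Rps27, Rpl34, Rpl37, Rpl14 and Rplp2 are therefore uncertain, and so, to a lesser degree, are those of genes with weaker copies. Rps15a-ps6 carried 0.3198 to 0.3784 times the counts of Rps15a, Rps19-ps3 carried 0.1194 to 0.2552 times those of Rps19, and Rpl32l, itself among the 84, carried 0.0827 to 0.1156 times those of Rpl32.

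As a whole the 84 genes took 2.44, 3.08 and 1.98% of the counts of siIrf1 TGFbeta libraries (2.5 ± 0.550, SD, n = 3), against 2.13 and 2.15% in siCtr TGFbeta libraries (2.14 ± 0.0113, SD, n = 2). They took 2.93, 2.85 and 3.03% in siIrf1 0 d libraries (2.94 ± 0.0866, SD, n = 3), against 2.33 and 2.34% in siCtr 0 d libraries (2.34 ± 0.00721, SD, n = 2). Without TGFbeta every siIrf1 library lay above both siCtr libraries. With TGFbeta the siIrf1 libraries spanned the siCtr values, replicate 2 lying highest and replicate 3 lowest. Per gene length the group means were 7.03% in siIrf1 TGFbeta, 6.19% in siCtr TGFbeta, 7.87% in siIrf1 0 d and 6.29% in siCtr 0 d libraries.

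The siIrf1 TGFbeta group had the widest spread between replicates. The median coefficient of variation of the 81 genes tested was 20.5% there, against 8.06% in siCtr TGFbeta, 9.42% in siIrf1 0 d and 13.3% in siCtr 0 d libraries, close to the 21.1, 8.83, 13.1 and 16.5% of all genes. Replicate 2 was the highest of the 3 for 67 of the 81 genes tested, replicate 3 was the lowest for 65, and the median difference between them was 0.57 on the log2 CPM scale. The spread was widest in Rplp1, which with Rplp2 forms the acidic stalk that recruits translation factors: 319.1, 751.3 and 80.5 CPM in siIrf1 TGFbeta, 421.1 and 201.2 in siCtr TGFbeta, 235.1, 465.6 and 224.5 in siIrf1 0 d, and 195.1 and 343.6 CPM in siCtr 0 d libraries. Replicate 2 was 9.34 times replicate 3 for Rplp1, 7.37 times for Rpl36 and 4.34 times for Rps16. All 4 groups overlapped for Rplp1. Over all 10 libraries the ratio of highest to lowest CPM had a median of 1.97 for these genes, and was under 2 for 43 of 81, against a median of 2.69 for the 12629 genes with counts in every library.

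This spread ran along the GC content of the transcript. Across the 81 genes the deviation of a library from the mean of the 10 had a Spearman correlation with GC content of 0.01, 0.58 and -0.62 in siIrf1 TGFbeta replicates 1, 2 and 3, and of 0.42 and -0.11 in siCtr TGFbeta replicates 2 and 3. It was -0.63, 0.21 and -0.63 in siIrf1 0 d replicates 1, 2 and 3, and 0.23 and 0.47 in siCtr 0 d replicates 1 and 3. Over all genes tested the values were -0.43, 0.35 and -0.56 in siIrf1 TGFbeta, 0.22 and 0.23 in siCtr TGFbeta, -0.51, -0.07 and -0.58 in siIrf1 0 d and 0.52 and 0.39 in siCtr 0 d libraries. These correlations are across genes, which share libraries, and carry no test. Transcript GC content was 39.1 to 62.4% among the ribosomal protein genes (median 51.0%, against 49.8% for genes tested), while their median length was 706.5 bases, against 2848 for genes tested. A fit in which each library's trend with GC content and length over all genes was taken out, called the trend correction here, is given beside the results that it changes.

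**Figure D2:**
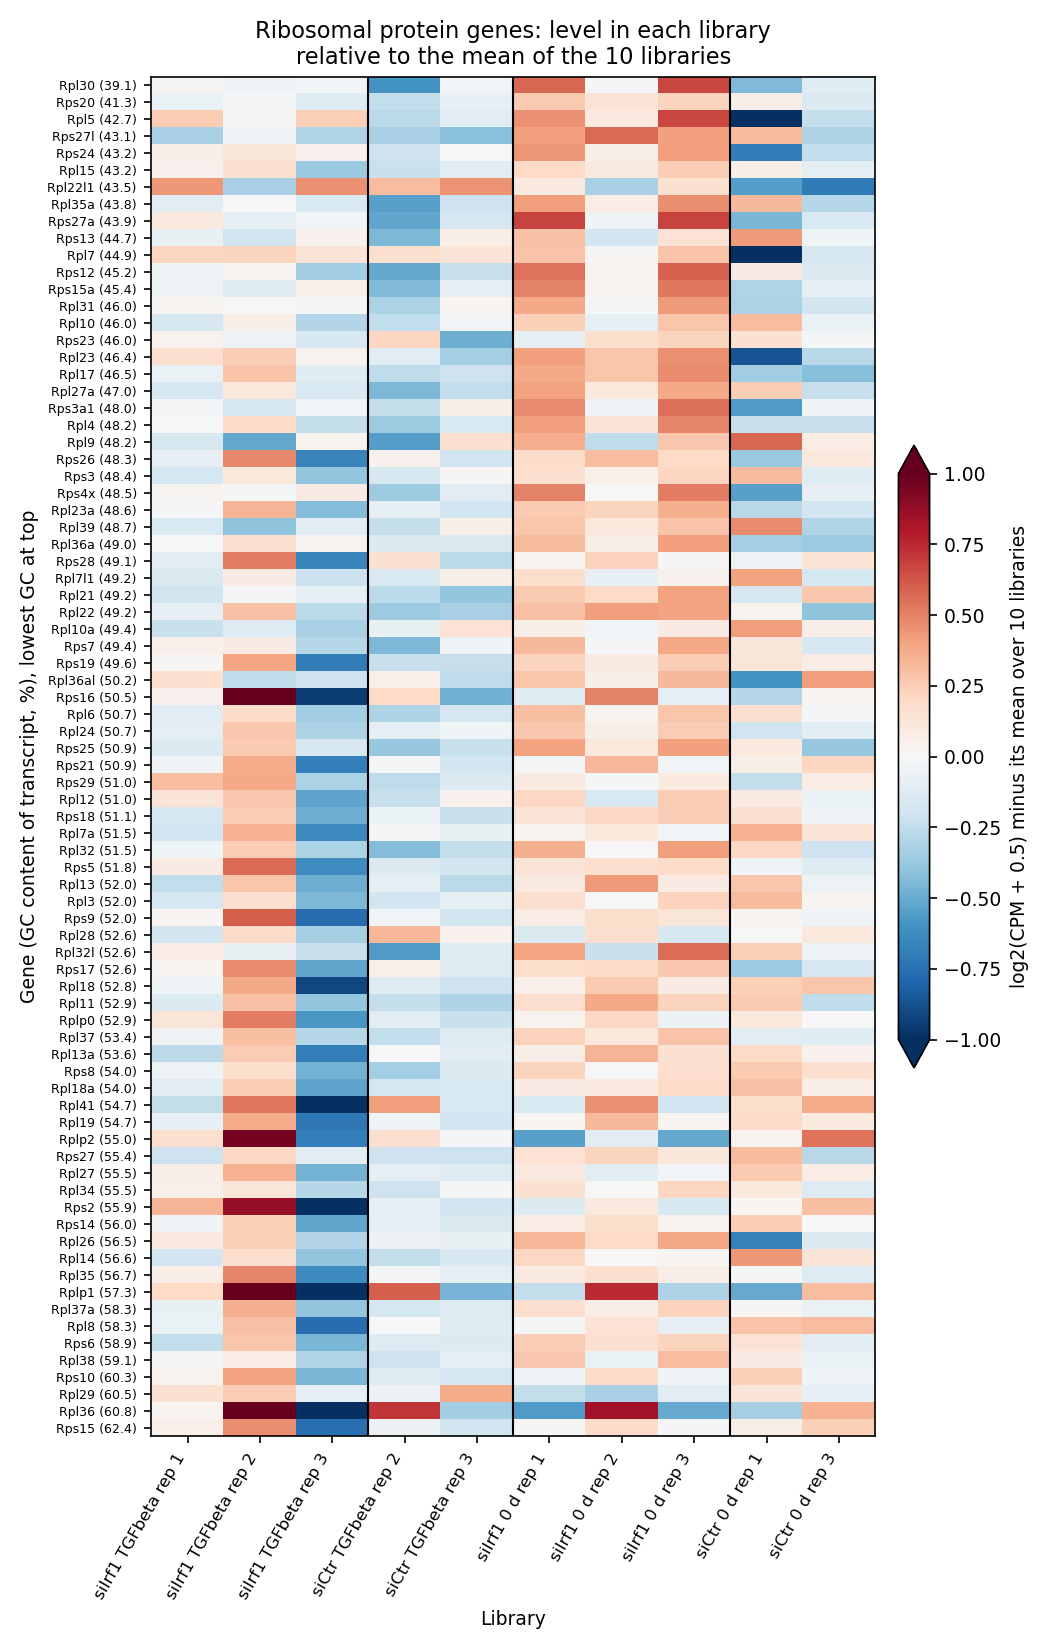
Colour shows log2(CPM + 0.5) minus its mean over 10 libraries for the ribosomal protein genes tested, 1 left out, sorted by transcript GC content (lowest at the top, value in brackets), with libraries in columns and lines between groups; values beyond 1 take the end colours. In siIrf1 TGFbeta replicates 2 and 3 most of the GC-rich genes at the bottom have opposite colours, and in siCtr 0 d replicate 1 several genes at the top are low.

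TGFbeta in siIrf1 cells changed 1 of the 81 genes. Rps27l fell and no other gene passed the test, edgeR's quasi-likelihood test with an adjusted p under 0.05 (Benjamini-Hochberg over all genes tested), against 21.3% of all genes called in either direction and 9.71% called lower. No gene rose: at an unadjusted p under 0.05 there were 1 rise and 12 falls, against 2233 and 1970 among all 13135 genes. DESeq2 likewise called Rps27l alone, against 26.3% of all genes. The median log2 fold change of the 81 was -0.23, with 71 of 81 below 0, against a median of 0.02 for all genes, of which 11.6% were called higher. The trend correction gave a median of -0.06 and 3 calls (1 higher, Rpl22l1, and 2 lower, Rps6 among them), against 32.1% of all genes. The median of the 81 was -0.08 after correction for length alone and -0.24 for GC content alone. Over all genes this log2 fold change had a Spearman correlation of 0.20 with length and 0.07 with GC content. Across the 81 genes it was -0.26 with length and 0.49 with GC content, and -0.24 and -0.21 after the trend correction. Without any correction, the median of the 81 was -0.39 without siIrf1 TGFbeta replicate 2 and -0.14 without replicate 3. The libraries did not overlap for 11 of the 81 (1 higher, 10 lower), against 35.8% of all genes (17.4% higher, 18.4% lower).

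Rps27l, the paralog of Rps27 whose gene is known to be induced by p53, lies at chr9:66944624-66949522. It was at 99.6, 121.6 and 101.3 CPM in siIrf1 TGFbeta, against 165.7, 184.8 and 165.6 CPM in siIrf1 0 d libraries, with every TGFbeta library below every 0 d library. The log2 fold change was -0.68 (SE 0.171, edgeR adjusted p = 0.0167). It was not called without siIrf1 TGFbeta replicate 1 (-0.63, adjusted p = 0.075), without siIrf1 TGFbeta replicate 3 (-0.64, adjusted p = 0.0507), without siIrf1 0 d replicate 2 (-0.62, adjusted p = 0.0528) or after the trend correction (-0.36, adjusted p = 0.33). In siCtr cells Rps27l was at 99.4 and 93.1 CPM with TGFbeta, against 155.7 and 100.7 CPM at 0 d, a change of -0.41 (SE 0.209, edgeR adjusted p = 0.154). The difference between those effects was -0.27 (95% interval -0.86 to 0.33). Rps27 itself was at 139.9, 186.4 and 150.5 CPM in siIrf1 TGFbeta, against 179.1, 188.8 and 175.3 CPM in siIrf1 0 d libraries, and these overlapped (-0.19, edgeR adjusted p = 0.516).

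The count of 1 depended on single libraries. Without siIrf1 TGFbeta replicate 2, 9 genes fell, among them Rps27l, Rpl13, Rpl13a, Rpl17, Rpl22 and Rps6, named after their values were seen, against 12% of all genes called lower in that fit. Without siIrf1 TGFbeta replicate 3, 2 rose (Rplp2 and Rps2), against 10.9% of all genes. Without siIrf1 0 d replicate 2, 3 fell (Rps12, Rps15a and Rps27a), against 8.45% of all genes. Without siIrf1 TGFbeta replicate 1 none was called, against 15.6% of all genes. With siIrf1 replicates taken as pairs in a fit of the siIrf1 groups alone, 3 fell, Rps27l and Rpl39 among them, against 12% of all genes.

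TGFbeta in siCtr cells changed 1 gene too. Rpl22l1 rose and no other gene passed, against 32.5% of all genes called in either direction, 16.1% higher and 16.3% lower. No gene fell: the unadjusted count was 2 rises and 1 fall, against 2971 and 2842 among all 13135 genes. DESeq2 called Rpl22l1 and Rpl7, both higher, against 39.2% of all genes (21.2% higher). The median of the 81 was -0.18, against 0.02 for all genes, and it turned to 0.21 after the trend correction, when all genes had a median of 0.09. That fit called 10 of the 81, all higher, against 42.4% of all genes called and 23% called higher. The libraries did not overlap for 41 of the 81 (8 higher, 33 lower), against 71.9% of all genes (36.5% higher, 35.3% lower).

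Rpl22l1, at chr3:28805508-28807424, is the paralog of Rpl22, whose protein is known in mouse to repress Rpl22l1. It was at 108.7 and 119.9 CPM in siCtr TGFbeta, against 59.6 and 53.4 CPM in siCtr 0 d libraries, and these did not overlap. The log2 fold change was 1.02 (SE 0.268, edgeR adjusted p = 0.0159), a 2.02-fold rise. Leaving out siCtr TGFbeta replicate 3 gave the same 1.02 with an adjusted p of 0.0532, and the trend correction gave 0.92 (adjusted p = 0.00704).

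In siIrf1 cells Rpl22l1 did not pass the test. It was at 118.3, 70.0 and 120.1 CPM in siIrf1 TGFbeta, against 93.8, 69.9 and 97.7 CPM in siIrf1 0 d libraries, with replicate 2 lowest in both groups (0.24, edgeR adjusted p = 0.518). After the trend correction it was called higher there as well (0.55, edgeR adjusted p = 0.0357), and with the replicate block it was at 0.22 (edgeR adjusted p = 0.35). The difference between both TGFbeta effects was -0.78 (SE 0.343, 95% interval -1.54 to -0.01, edgeR adjusted p = 0.268) and did not pass the test, and with the replicate block it was -1.07 (edgeR adjusted p = 0.0574). Between the siRNAs at 0 d Rpl22l1 differed by 0.63 (edgeR adjusted p = 0.0777), by 0.78 with the replicate block (edgeR adjusted p = 0.0127, called) and by -0.04 after the trend correction (edgeR adjusted p = 0.881). Rpl22 was at 219.2 and 225.8 CPM in siCtr TGFbeta, against 289.2 and 214.1 CPM in siCtr 0 d libraries, which overlapped (-0.18, edgeR adjusted p = 0.537).

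**Figure D3:**
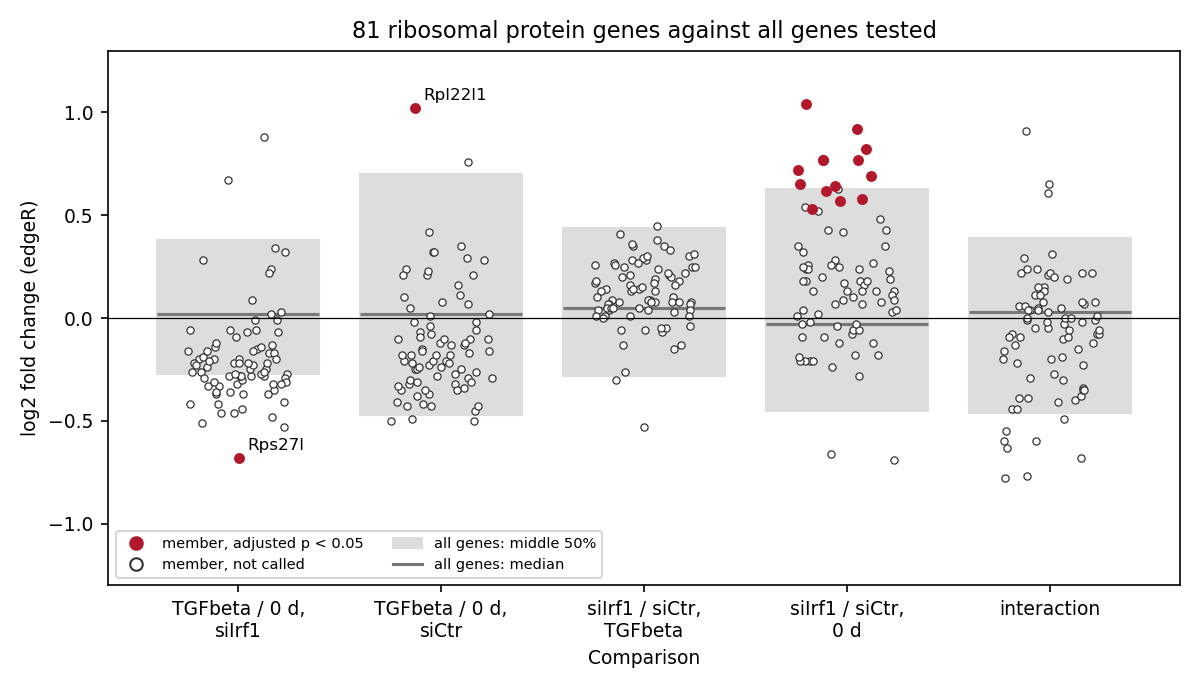
Log2 fold change of 81 ribosomal protein genes (points) in 5 comparisons, filled where the edgeR adjusted p was under 0.05; grey boxes span the middle 50% of all 13135 genes tested and grey lines mark their median. Called genes are 1, 1, 0, 14 and 0 from left to right.

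The Irf1 siRNA in the presence of TGFbeta changed none of the 81 genes by edgeR's test, against 18% of all genes called, 9.72% higher and 8.28% lower. None had an unadjusted p under 0.05, against 4075 of all 13135 genes, and DESeq2 called none, against 24.5% of all genes. The median was 0.13, against 0.05 for all genes, with 69 of 81 above 0. It was -0.04 without siIrf1 TGFbeta replicate 2 and 0.28 without replicate 3 (when Rps29 was called higher). After the trend correction it was 0.27, and 9 genes were called higher, against 27.1% of all genes called and 16.2% called higher. The log2 fold change of the 81 then had a Spearman correlation with GC content of 0.64, against -0.16 before the correction. Over all genes that correlation was 0.04 after and -0.40 before. Libraries did not overlap for 14 genes (13 higher, 1 lower), against 46.3% of all genes (23.4% higher, 22.9% lower). The 95% interval of the log2 fold change lay within 1 of 0 for 74 of the 81, against 52.3% of all genes.

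The largest differences here were in genes whose replicates spread widely. Rpl28 was at 0.354, 0.607 and 0.271 CPM in siIrf1 TGFbeta, against 0.726 and 0.5 CPM in siCtr TGFbeta libraries (-0.53, edgeR adjusted p = 0.42), from 199 counts over the 10 libraries. Rps16 was at 204.2, 448.0 and 103.2 CPM in siIrf1 TGFbeta, against 227.8 and 141.8 CPM in siCtr TGFbeta libraries (0.45, edgeR adjusted p = 0.606). Rps2 was at 19.8, 28.8 and 7.28 CPM in siIrf1 TGFbeta, against 14.6 and 13.5 CPM in siCtr TGFbeta libraries (0.41, edgeR adjusted p = 0.585). Groups overlapped in all 3.

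The Irf1 siRNA without TGFbeta gave the most calls. Of the 81 genes 14 rose, between 1.44-fold and 2.05-fold, and none fell, against 31.8% of all genes called in either direction, 16.3% higher and 15.5% lower. The 14 are 17.3% of the 81, near the share of all genes called higher. At an unadjusted p under 0.05, 17 were higher and 0 lower, against 3033 and 2835 of all 13135 genes. DESeq2 called 15, all 14 of these and Rpl22, against 39.4% of all genes (20.8% higher). The median of the 81 was 0.17, against -0.03 for all genes, and 59 of 81 were above 0. In all, 9 of the 14 belong to the large subunit (of 50 tested) and 5 to the small subunit (of 31 tested). For all 14 every siIrf1 library lay above both siCtr libraries. Such separation was found for 30 of the 81 genes in this direction and 4 in the other, against 62.3% of all genes in either (30.2% higher, 32.1% lower).

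Among the large subunit genes, Rpl5 (chr5:107900508-107909005) had the largest change. Its protein joins Rpl11 and the smallest large-subunit rRNA in the particle that binds Mdm2. It was at 515.9, 401.5 and 597.8 CPM in siIrf1 0 d, against 174.0 and 318.5 CPM in siCtr 0 d libraries (1.04, SE 0.259, edgeR adjusted p = 0.0151). Replicate 1 of siCtr was the lowest library. Rpl23 (chr11:97777526-97782439), which also binds Mdm2, was at 771.1, 703.4 and 797.7 CPM in siIrf1 0 d, against 318.9 and 480.6 CPM in siCtr 0 d libraries (0.92, SE 0.188, edgeR adjusted p = 0.00607). Rpl11, the partner of Rpl5 in that particle, was not called. It was at 120.3, 139.2 and 124.6 CPM in siIrf1 0 d, against 127.9 and 89.5 CPM in siCtr 0 d libraries (0.24, edgeR adjusted p = 0.426). The trend correction turned this order round, with Rpl11 called at 0.78 (edgeR adjusted p = 0.000706) and Rpl5 not called at 0.26 (edgeR adjusted p = 0.183).

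Rpl17, a protein of the large subunit's exit tunnel, was at 262.3, 243.9 and 280.0 CPM in siIrf1 0 d, against 158.3 and 149.7 CPM in siCtr 0 d libraries (0.77, SE 0.159, edgeR adjusted p = 0.00659). Both siCtr libraries were close together here. Rpl7, another large subunit protein, was at 741.1, 612.1 and 743.3 CPM in siIrf1 0 d, against 249.5 and 544.2 CPM in siCtr 0 d libraries (0.82, SE 0.271, edgeR adjusted p = 0.0443). Rpl4, which also lines the exit tunnel, was at 2270, 1855 and 2381 CPM in siIrf1 0 d, against 1455 and 1445 CPM in siCtr 0 d libraries (0.58, SE 0.172, edgeR adjusted p = 0.028). In siIrf1 cells replicate 2 was the lowest for each of these 3 genes. The other large subunit genes called were Rpl26 (0.69), Rpl36a (0.62), Rpl31 (0.53) and Rpl30 (0.72), with edgeR adjusted p-values of 0.0261, 0.0116, 0.0477 and 0.0488.

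Among the small subunit genes, Rps24, altered in the inherited Diamond-Blackfan anaemia of humans, was at 266.1, 204.7 and 261.1 CPM in siIrf1 0 d, against 120.9 and 165.1 CPM in siCtr 0 d libraries (0.77, SE 0.181, edgeR adjusted p = 0.0111). Rps27a, which is made as a fusion with ubiquitin, was at 470.1, 284.7 and 469.7 CPM in siIrf1 0 d, against 213.7 and 263.7 CPM in siCtr 0 d libraries (0.77, SE 0.231, edgeR adjusted p = 0.0297). The siIrf1 libraries 1 and 3 stood well above replicate 2 for Rps27a. Rps4x (0.65), encoded on the X chromosome, Rps3a1 (0.64) and Rps15a (0.57) had edgeR adjusted p-values of 0.0333, 0.0482 and 0.044.

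**Figure D4:**
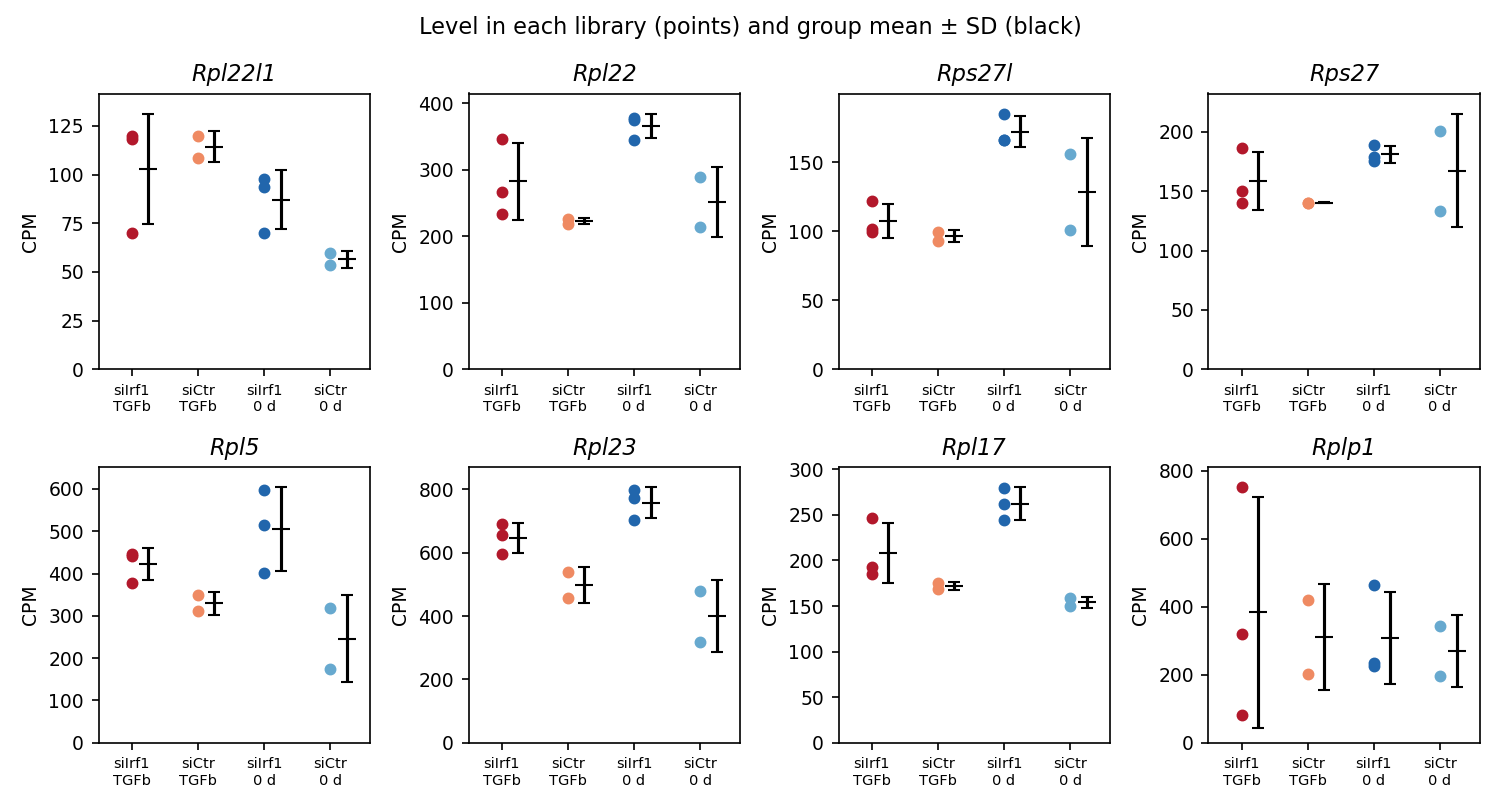
CPM in each library (coloured points) and group mean ± SD (black; n = 3 for siIrf1 and 2 for siCtr groups) for 8 ribosomal protein genes on linear axes from 0. Rpl5, Rpl23 and Rpl17 separate siIrf1 0 d from siCtr 0 d libraries, Rpl22l1 separates siCtr TGFbeta from siCtr 0 d, and Rplp1 ranges from 80.5 to 751.3 CPM within siIrf1 TGFbeta.

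The 14 calls depended on single libraries. Without siCtr 0 d replicate 1, which was lowest for Rpl5, Rpl23 and Rpl7, only Rpl17 (0.80, adjusted p = 0.0458) kept its call, and Rps27l was added, against 12.6% of all genes called in that fit. Rpl17 alone was called in all 10 fits that left out a library. Without it Rpl5 was at 0.66 (adjusted p = 0.102), Rpl23 at 0.65 (0.0548), Rpl36a at 0.63 (0.0796), Rps24 at 0.55 (0.123), Rpl7 at 0.35 (0.253), Rpl26 at 0.45 (0.23) and Rpl4 at 0.58 (0.133), each as a log2 fold change with its adjusted p. Rps27a was then at 0.62 (0.195), Rpl30 at 0.56 (0.282), Rps15a at 0.46 (0.26), Rpl31 at 0.45 (0.256), Rps4x at 0.43 (0.267) and Rps3a1 at 0.39 (0.337). Without siIrf1 0 d replicate 3 the calls of Rpl17, Rpl23 and Rps24 were kept, against 17.1% of all genes called (31.8% as designed). Without siIrf1 0 d replicate 1 those of Rpl17, Rpl23, Rps24, Rpl5 and Rpl36a were kept, against 19.7% of all genes. Without siIrf1 TGFbeta replicate 1, 8 genes were called, against 27.4% of all genes. They were Rpl17, Rpl23, Rps24, Rpl5, Rpl36a, Rpl26, Rpl4 and Rps27a, all among the 14. Without siIrf1 TGFbeta replicate 2, 17 were called, the 14 with Rpl22, Rpl22l1 and Rpl23a, against 39.6% of all genes. Without siCtr TGFbeta replicate 2 or 3, which left 1 library in that group, the median of the 81 was 0.21 each time, against 0.17 as designed. Leaving out siIrf1 TGFbeta replicate 3 cost 4 of the 14 calls (Rpl7, Rpl30, Rpl31 and Rps3a1) and added Rpl22 and Rpl23a, against 32.4% of all genes called. Leaving out siIrf1 0 d replicate 2 cost the call of Rpl7 and added Rpl22l1 and Rps12, against 30.5% of all genes called. Without siCtr 0 d replicate 3, Rpl4 was at 0.64 and Rpl31 at 0.66.

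The genes called at 0 d were GC-poor for their family. Their transcripts had a median GC content of 46.2%, against 51.8% for the 67 tested and not called, and 12 of the 14 were among the 27 genes of lowest GC content. The log2 fold change had a Spearman correlation with GC content of -0.56 across the 81 genes and -0.60 across 13023 genes tested with a known GC content. The trend correction changed both the number and the kind of genes called: 39 were higher, with a median GC content of 52.9%, and 2 (Rpl30 and Rps20) lower, against 37% of all genes called, 22.9% higher and 14.1% lower. Only 8 of the original 14 were among the 39.

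The trend was fitted on all genes, and after the correction the correlation with GC content was 0.03 over all genes but 0.48 over the ribosomal protein genes, against -0.60 and -0.56 before it. Rpl30, the GC-poorest at 39.1%, was at 59.2, 39.4 and 63.2 CPM in siIrf1 0 d, against 29.1 and 36.4 CPM in siCtr 0 d libraries, and its log2 fold change was -0.60 after the trend correction and 0.72 before it. Rpl26, at 56.5% GC, had 1.32 after and 0.69 before. Rpl17 (0.73), Rpl23 (0.85), Rpl4 (0.78), Rpl36a (0.93), Rps4x (0.87), Rps3a1 (0.80) and Rpl31 (0.37) were still called higher, whereas Rpl5 (0.26), Rpl7 (0.48), Rps24 (0.07), Rps27a (0.18) and Rps15a (0.10) were not. The median of the 81 was then 0.54, against 0.15 for all genes, whose own median the correction had moved by 0.18. Correction for length alone called 26 higher, against 34.6% of all genes called, 17.9% higher and 16.6% lower. Correction for GC content alone called 30 higher and 2 lower, against 33.8% of all genes, 21.3% higher and 12.5% lower. In the other comparisons length alone gave 2 calls for TGFbeta in siIrf1 cells (22% of all genes), 4 in siCtr cells (33.3%), none for siIrf1 with TGFbeta (19.8%) and none for the interaction (4.55%). GC content alone gave 9, 2, 3 and no calls in the same order, against 32, 41.3, 25.2 and 7.91% of all genes. Whether the GC dependence arose in the libraries or in the cells was not tested.

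**Figure D5:**
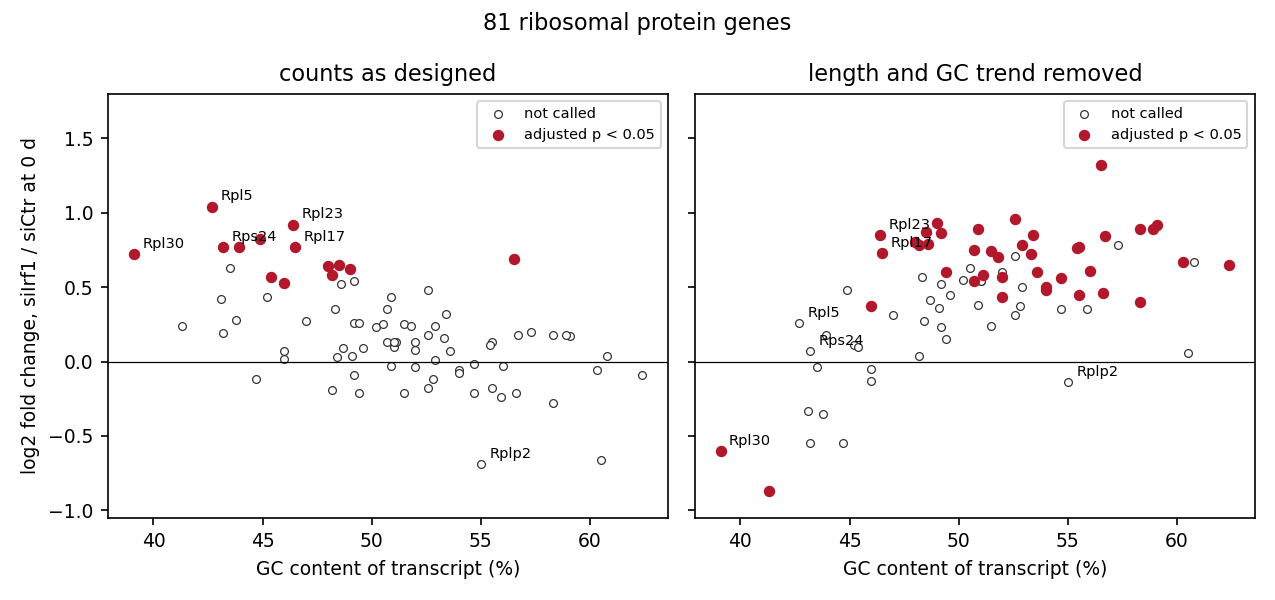
Log2 fold change of siIrf1 over siCtr at 0 d for 81 ribosomal protein genes against the GC content of the transcript (%), from the counts as designed (left) and after the trend correction (right); filled points have an edgeR adjusted p under 0.05. The relation slopes down on the left (Spearman -0.56) and up on the right (0.48).

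Pyrimidine runs were counted in the promoters of the genes called at 0 d. Of the 14 genes, 10 were in the promoter table and 2 of them, Rps24 and Rps15a, had a C followed by at least 7 more pyrimidines in the window, against 23 of the 54 others, a difference that was not tested. The 2 genes with the largest changes are shown for comparison with the sequences above.
Rpl5: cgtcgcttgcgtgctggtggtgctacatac
Rpl23: gtccggtcacgtggctgagtgggcggggcc
No capitals are given here, since the longest run was 3 bases in Rpl5 (chr5:107900518-107900547, plus strand) and 2 in Rpl23 (chr11:97782420-97782449, minus strand).

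Whether the Irf1 siRNA altered the response to TGFbeta was read from the interaction. None of the 81 passed edgeR's test of it, against 4.12% of all genes (2.8% higher, 1.32% lower). At an unadjusted p under 0.05 there were 3 (all negative), against 2380 of all 13135 genes (981 negative). DESeq2 called none, against 8.92% of all genes. The median was -0.05, against 0.03 for all genes, 0.06 without siIrf1 TGFbeta replicate 3 and -0.28 after the trend correction, which called none, against 8.85% of all genes. The interval lay within 1 of 0 on the log2 scale for 53 of 81, against 33.6% of all genes. The largest value was that of the stalk gene Rplp2, at 0.91 (95% interval -0.31 to 2.14, edgeR adjusted p = 0.416). It was at 89.7, 155.6 and 49.5 CPM in siIrf1 TGFbeta, 89.8 and 78.8 in siCtr TGFbeta, 54.7, 74.3 and 56.1 in siIrf1 0 d, and 82.1 and 116.9 CPM in siCtr 0 d libraries. Rpl7 followed in size after Rpl22l1, at -0.77 (95% interval -1.61 to 0.06, edgeR adjusted p = 0.314). Without siCtr 0 d replicate 3, siCtr 0 d rests on its replicate 1 alone. The median of the 81 was then -0.07, with 51 of 81 below 0, against a median of -0.08 for all genes.

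The other paralog pairs and fixed genes showed no call beyond those given in the fit as designed. Rpl36al was at 20.9, 15.5 and 16.0 CPM in siIrf1 TGFbeta, 19.3 and 15.5 in siCtr TGFbeta, 22.6, 19.5 and 23.4 in siIrf1 0 d, and 12.1 and 25 CPM in siCtr 0 d libraries, with wide overlap. Rpl7l1, a nucleolar relative of Rpl7, had log2 fold changes of -0.14 with TGFbeta in siIrf1 cells, -0.18 in siCtr cells, -0.05 for siIrf1 with TGFbeta and -0.09 for siIrf1 at 0 d. Over the same comparisons Rpl3 had -0.26, -0.32, 0.01 and -0.04, Rpl10 had -0.27, -0.27, 0.01 and 0.02, and Rpl39 had -0.44, -0.23, -0.13 and 0.09. The stalk base Rplp0 had 0.02, -0.22, 0.25 and 0.01, and Rps6 had -0.32, -0.16, 0.03 and 0.18. The TGFbeta and siRNA comparisons share libraries, so these values are not independent of each other. After the trend correction Rpl3 (0.43), Rps6 (0.89), Rpl11 (0.78), Rpl22 (0.86) and Rps27 (0.76) were called higher at 0 d.

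Genes outside the symbol rule that belong to the same machinery were read from lists. Beside their counts stand the shares of all genes called: 11.6% higher and 9.71% lower for TGFbeta in siIrf1 cells, 16.1 and 16.3% in siCtr cells, 9.72 and 8.28% for siIrf1 with TGFbeta, and 16.3 and 15.5% for siIrf1 at 0 d. Without siCtr 0 d replicate 1 the last pair was 6.33 and 6.32%, and after the trend correction 22.9 and 14.1%. Of 34 translation factors and other TOP mRNAs, 1 rose with TGFbeta in siIrf1 cells, 1 rose in siCtr cells, none was called for siIrf1 with TGFbeta, and 11 rose and 2 fell for siIrf1 at 0 d (2 and 0 without siCtr 0 d replicate 1). The rise in siIrf1 cells was in Eif3f, a subunit of initiation factor eIF3, at 408.5 ± 40.8 CPM with TGFbeta, against 214.1 ± 1.54 CPM at 0 d (SD, n = 3 each; 0.93, edgeR adjusted p = 0.00145). In siCtr cells Eif3f was at 324.3 ± 48.0 CPM with TGFbeta and 373.3 ± 77.7 CPM at 0 d (SD, n = 2 each). Between the siRNAs at 0 d it was called lower in siIrf1 cells (-0.80, edgeR adjusted p = 0.00648). Eif3f was also the list's only call in the interaction (1.14, edgeR adjusted p = 0.0284), against 2.8% of all genes called higher, and that call was kept in 3 of the 10 fits that left out a library. At 0 d Npm1, the nucleolar chaperone nucleophosmin, was at 447.8 ± 57.2 CPM in siIrf1, against 133.4 ± 33.2 CPM in siCtr libraries (SD, n = 3 and 2; 1.75, edgeR adjusted p = 0.00685). After the trend correction Npm1 was at 0.90 and still called, as was Eif3f at -0.43. Eif3m was at 1.44 as designed (edgeR adjusted p = 0.0105) but at 0.10 after the correction (edgeR adjusted p = 0.689), no longer called.

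Of 45 ribosome biogenesis genes, 3 fell with TGFbeta in siIrf1 cells, 4 rose and 1 fell in siCtr cells, 3 fell for siIrf1 with TGFbeta, and 9 rose and 2 fell for siIrf1 at 0 d (3 and 0 without siCtr 0 d replicate 1). Nop58, a core protein of box C/D small nucleolar RNPs, was at 146.1 ± 13.8 CPM in siIrf1 0 d, against 33.0 ± 16.9 CPM in siCtr 0 d libraries (SD, n = 3 and 2; 2.14, edgeR adjusted p = 0.00369), and at 1.13 after the trend correction, still called. Polr1a was at -0.68 (edgeR adjusted p = 0.0075) and at -0.47 after the correction, still called. Nmd3 was at 1.78 (edgeR adjusted p = 0.00714) but at 0.43 after the correction (edgeR adjusted p = 0.121), no longer called.

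Of 27 genes of mTORC1, the S6 kinases and growth control, 2 rose and 1 fell with TGFbeta in siIrf1 cells, 5 rose and 4 fell in siCtr cells, 2 rose and 2 fell for siIrf1 with TGFbeta, and 5 rose and 11 fell for siIrf1 at 0 d (1 and 4 without siCtr 0 d replicate 1; 8 and 5 after the trend correction). Larp4, a binding protein of poly(A) tails, had the smallest adjusted p of the list at 0 d, with a log2 fold change of 3.20 (edgeR adjusted p = 0.000642), and 1.68 after the trend correction. Mtor, the kinase itself, was at 61.2 ± 4.62 CPM in siIrf1 0 d, against 108.4 ± 8.57 CPM in siCtr 0 d libraries (SD, n = 3 and 2; -0.83, edgeR adjusted p = 0.00273). Tsc2, which restrains mTORC1, was at 90.4 ± 16.2 CPM in siIrf1 0 d, against 200.2 ± 21.2 CPM in siCtr 0 d libraries (SD, n = 3 and 2; -1.15, edgeR adjusted p = 0.00169). Ddit4, an mTORC1 inhibitor induced by stress, rose with TGFbeta, by 1.53 on the log2 scale in siIrf1 cells (edgeR adjusted p = 0.000127) and 1.73 in siCtr cells (edgeR adjusted p = 0.000175).

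Of 78 mitochondrial ribosomal protein genes, 3 fell with TGFbeta in siIrf1 cells, 1 rose and 15 fell in siCtr cells, 1 fell for siIrf1 with TGFbeta, and 8 rose and 7 fell for siIrf1 at 0 d (none without siCtr 0 d replicate 1). Their median log2 fold changes were -0.18, -0.32, 0.02 and -0.20, against -0.23, -0.18, 0.13 and 0.17 for the cytosolic ribosomal protein genes in the same order.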

How the data were processed

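The authors deposited whole-number read counts per gene for 10 libraries, with a gene length column, used here for TPM, whose source is not stated. Libraries were stranded, per the labels' protocols. STAR and the build mm10 (GRCm38) are named, per the submitters' processing notes. The counting tool, its strand setting and its treatment of multiply matching reads were not given in the sources used here. Entrez identifiers were matched to RefSeq symbols (24374 of 24454).

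Counts were fitted with edgeR 4.0.16 in R 4.3.3 (TMM, filterByExpr, robust quasi-likelihood F test, 1 term per group over all 10 libraries; 6 residual degrees of freedom). The Benjamini-Hochberg adjustment ran over 13135 genes. Standard errors were taken from the F statistic of each log2 fold change, and intervals are 95%. The trend correction used natural splines (5 degrees of freedom) of each library's deviation on GC content (of the longest transcript in GENCODE M21, found for 99.1% of the genes) and log2 length, entered as offsets. The procedure was tested on simulated data.

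Members and lists were chosen with earlier results of these data known. Genes named are up to 12 called members per comparison by adjusted p (or the 3 largest changes where none was called), paralogs with their standard partners, stalk proteins, Rpl5, Rpl11, Rpl23, Rps6, and up to 3 called genes per other list; the remaining 2 called genes and others are named after their values were seen. A few genes are not reported by name here. Alternatives were RLE factors, TMM without these genes, other filters, DESeq2 1.42.0, fits of only the groups compared, a replicate block, the trend correction and leaving out libraries. Deviations of same-numbered libraries correlated at -0.393 to 0.448 (8 of 12 pairs over 0.1), and at 0.136 to 0.448 in the 3 siIrf1 pairs, taken as paired from the data. Differently numbered libraries correlated at -0.525 to 0.525, and at -0.423 to 0.28 between the siIrf1 groups, which overlaps the same-numbered values. Same-numbered libraries also share a tag in their titles, whose meaning the labels do not give.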

Additional observations from a re-analysis of the deposited data

How the results depend on the processing

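Depth limits the values of Rpl28, Rpl29, Rpl21 and Rps23, and 2 or 3 libraries per group limit all of them. The counts and medians of ribosomal protein genes called moved as follows. After the trend correction, 3, 10, 9, 41 and 0 genes were called for TGFbeta in siIrf1 cells, TGFbeta in siCtr cells, siIrf1 with TGFbeta, siIrf1 at 0 d and the interaction, against 1, 1, 0, 14 and 0 as designed, with medians of -0.06, 0.21, 0.27, 0.54 and -0.28. With the replicate block added to it the counts were 3, 7, 6, 39 and 0, against 31.7, 37.8, 24.5, 34.9 and 6.13% of all genes. The medians were then -0.06, 0.21, 0.28, 0.51 and -0.26. Length alone gave 2, 4, 0, 26 and 0 (medians 0.09 for TGFbeta in siCtr cells and 0.37 at 0 d), and GC alone 9, 2, 3, 32 and 0 (median 0.46 at 0 d). Leaving out siIrf1 TGFbeta replicate 2 and siCtr 0 d replicate 1 together left 1 siCtr 0 d library. The medians were then -0.41, -0.05, -0.11, 0.22 and -0.36, against 0.00, 0.05, -0.06, 0.00 and -0.05 for all genes. DESeq2 called 2 genes for TGFbeta in siCtr cells, against 39.2% of all genes. The fit of the groups alone called 8 at 0 d, against 29.4% of all genes, and could not be fitted for the interaction. The replicate block alone left 1, 1, 0, 15 and 0, against 23.2, 33.1, 17, 39.8 and 3.97% of all genes. The siIrf1 groups alone with the block, an alternative chosen after seeing the data, gave 3, against 24.8% of all genes. Leaving out single libraries gave counts of 0 to 9, 0 to 6, 0 to 1, 2 to 17 and 0 to 5. The shares of all genes called in those fits were 14.9 to 25.2, 17.1 to 39.4, 5.69 to 22.7, 12.6 to 39.6 and 0.911 to 11.8%. The 6 and the 5 came without siCtr 0 d replicate 3, against 38.1 and 11.8% of all genes. The medians of the 81 were -0.39 to -0.14, -0.18 to -0.05, -0.04 to 0.28, 0.13 to 0.23 and -0.23 to 0.06. Where leaving out a library left 1 siCtr library in a group, as without siCtr 0 d replicate 3, that library was assumed to vary like the other groups. Shares per gene length were 7.03, 6.19, 7.87 and 6.29%. Over all 81 genes, 35 of 8895 values under alternatives had the other sign where either value was called. They came from 16 genes, 13 of them at 0 d and 3 with TGFbeta in siCtr cells (Rpl10a, Rpl34 and Rps25), and each followed a correction for GC content, alone or with length. Of these, 4 turned a call made as designed. Among the 33 genes followed singly (3625 values), 6 turned, all at 0 d: Rpl30 (-0.60 with the correction, -0.70 with GC alone, -0.57 with correction and block), Rps24 (-0.02 with GC alone) and Rpl3 (0.43 and 0.45 with the correction, without and with the block, against -0.04). Of the same 3625 values, another 111 lost and 84 gained a call. The causes were not tested.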
